A study of Mus musculus with 23 samples.

Results

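The difference between Runx1KO and control C2C12 myoblasts was examined in growth medium with 20% fetal bovine serum, before differentiation was started. C2C12 is an established mouse myoblast line whose cells divide in rich medium and fuse into multinucleate myotubes after serum withdrawal. The comparison rested on 5 of the 23 poly(A) RNA libraries of the series, taken by their column names in the count table. There were 3 libraries labelled Runx1KO, called KO-labelled below, and 2 libraries of control cells, called WT, all harvested on day 0. The remaining libraries, of the same 2 genotypes on days 1, 3 and 6 in 2% horse serum, entered the estimate of the spread and the comparison of each difference with its later value. The labels name no guide, allele, clone or separate cultures. P-values therefore measure the spread between these libraries, which may be technical, and a difference between 2 stocks of cells and an effect of the genotype cannot be told apart.

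Runx1 is a DNA-binding transcription factor that pairs with Cbfb and is best known from blood formation. It can bind next to factors of the Ets family and either activates or represses a gene depending on its cofactors. In muscle it is low in resting fibres and is induced in activated satellite cells, in regenerating muscle and after denervation. Proliferating myoblasts carry the myogenic factors Myod1 and Myf5, build and remodel their extracellular matrix, and keep the contractile programme off until serum is withdrawn.

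Runx1 mRNA went against the label. Levels are given as CPM, the count relative to the TMM-scaled size of the library, and differences as log2FC, the log2 fold change of KO-labelled over WT. It stood at 118, 119 and 122 CPM in the KO-labelled libraries and 84.0 and 83.9 CPM in WT, so every KO-labelled library was above both WT libraries (log2FC 0.51, SE 0.0944, edgeR adjusted p = 0.000362). A poly(A) count says nothing about whether the transcript is edited or the protein is made, and directions below follow the labels. Of the partners and relatives of Runx1, Cbfb (log2FC 0.11), Runx2 (0.14) and Runx3 (-0.04) did not pass the test. In the list of Runx factors and their corepressors, 3 of 16 tested genes rose and 1 fell (25% called, against 17.5% of all tested genes). Besides Runx1 they were Tle4, a Groucho-type corepressor (log2FC 1.04), the kinase Hipk2 (0.70), and Tle2, a second Groucho-type corepressor, which was lower (-0.70). Of 16 tested Ets factors, Erf (log2FC 0.42) and Elk3 (0.30) were higher and Elk4 (-0.29) lower, each by less than 1.5-fold (18.8% called). Ets1 stood at 80.4, 71.3 and 81.0 against 79.0 and 69.5 CPM and Ets2 at 187, 195 and 181 against 182 and 179.6 CPM, with overlapping groups. Tle4 lost its call without WT replicate 2 (log2FC 0.92). The calls of Hipk2 and Tle2 were lost without WT replicate 1 or 2 (log2FC 0.67 to 0.75 for those higher and -0.70 to -0.68 for those lower). Erf lost its call in 9 of 15 alternatives, among them without KO-labelled replicate 2 or 3 or WT replicate 1 or 2 (log2FC 0.38 to 0.48). Elk3 lost its call without KO-labelled replicate 3 or WT replicate 1 or 2 (log2FC 0.29 to 0.31). Elk4 lost its call without KO-labelled replicate 1 or 2 or 3 or WT replicate 1 or 2 (log2FC -0.31 to -0.26). Erf, Elk3 and Elk4 also lost their calls with the chromosome median taken out (log2FC 0.18 to 0.23 for those higher and -0.23 for those lower).

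The libraries carried the markers of myoblasts. Myod1, the factor that fixes muscle identity, was at 430.0, 418 and 473 TPM (transcript abundance corrected for length and depth) in the KO-labelled libraries and 381 and 375 TPM in WT, and desmin (Des) at 813, 836 and 811 and 536 and 531 TPM. Markers of differentiated myotubes were absent or low. Ckm had at most 2 counts, Myh3 at most 3 and Myog at most 4 in any of the 5 libraries, and Actn2 had 0. The rest of that list had more, with 18 to 30 counts for Mymk and 3 to 19 for Mylpf. Acta1 had 19, 22 and 14 counts against 5 and 12, and Tnnt3 had 9, 12 and 15 against 2 and 4. None of the 8 myotube markers was called. Ptprc and Adgre1 of macrophages, Adipoq of adipocytes, Sox10 of Schwann cells, Epcam of epithelium, Thy1 and Dpt of fibroblasts and Pou5f1 of pluripotent cells had 0 counts in all 5. Other members of these marker lists were present. Cd14 of macrophages had 278 to 348 counts, Pparg of adipocytes 251 to 452, and the neural Tubb3 stood at 122 to 147 TPM. The neural Nefl stood at 135, 121 and 130.4 TPM in the KO-labelled libraries and 80.2 and 68.4 TPM in WT, a called rise, and its part in other results was not tested. The summed level of the 8 listed fibroblast markers was 512 to 708 CPM in the KO-labelled libraries and 1398 to 1590 CPM in WT. That sum is carried by Col1a1, Col3a1 and Pdgfrb, and its part in the matrix results below was not tested. Of the 6 tested fibroblast markers 4 were called lower and 1 higher (83.3% called, against 17.5% of all tested genes). The higher one was Dcn, with 40, 24 and 13 against 7 and 7 counts. In bulk libraries fewer cells of a type and less RNA per cell cannot be told apart.

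Depth was even, at 22197606 to 23109833 estimated counts per library, and 15197 to 15736 genes had a count above 0. The first principal component held 66.0% of the variance of the 5 libraries and separated the genotypes. The second held 14.4% and separated KO-labelled replicate 3 from replicates 1 and 2 of its group. The chi-square statistic per degree of freedom was at least 4.06 for pairs of one group and 30.1 to 45.2 for pairs across genotypes, so no library was a copy of another. A gene is called here when its adjusted p in edgeR's quasi-likelihood test was under 0.05.

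Before differentiation the genotypes already differed widely. Of 14187 tested genes, 2479 were called (17.5%). The KO-labelled libraries had the higher level for 1044 (7.36%) and the lower for 1435 (10.1%). With scaling by library size alone the split was 760 higher and 1817 lower, and the median log2FC of all genes shifted from -0.0011 to -0.06. With limma on log2(TPM + 1) it was 650 higher and 1427 lower, and on log2(TPM + 0.1) 692 higher and 1603 lower. The groups did not overlap in 7327 tested genes (51.6%). Most called differences were small: their median absolute log2FC was 0.60 and 1221 were under 1.5-fold. A difference of 2-fold or more was called for 793 genes (5.59%), 245 higher and 548 lower. In all 3 KO-labelled libraries 136 called genes had at most 3 counts, against 28 called genes in both WT libraries. The count depended on the 2 WT libraries: 1265 genes were called without WT replicate 1, 1499 without WT replicate 2, and 1763 to 2216 when a KO-labelled library was left out.

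**Figure D1:**
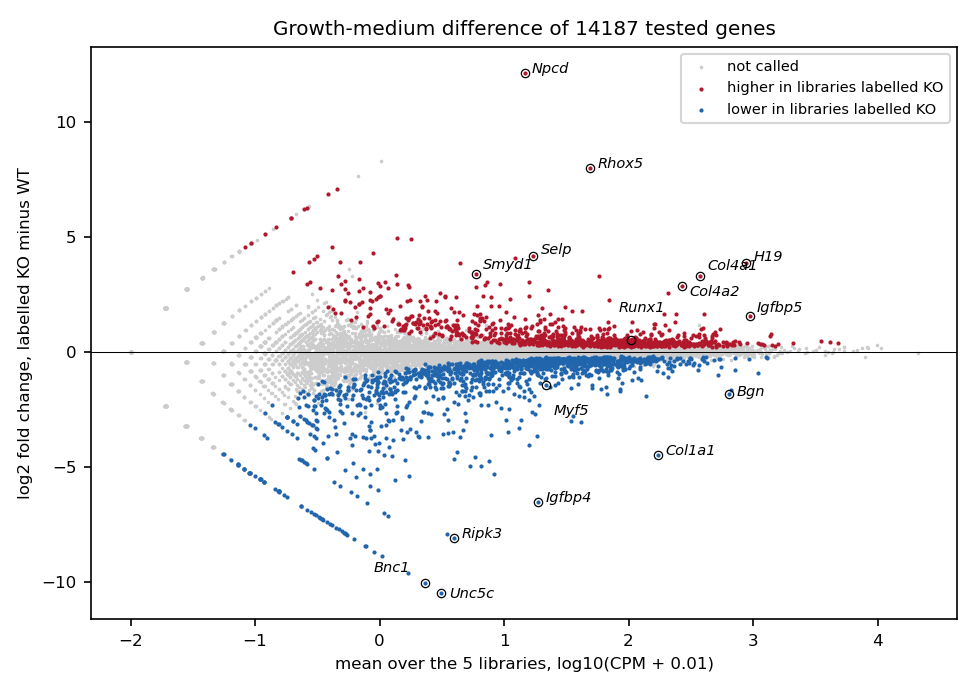
Each point is a tested gene, with its mean level over the 5 growth-medium libraries on a log10 axis and the log2 fold change of the KO-labelled libraries over WT on the vertical axis; red and blue points were called higher and lower, and black rings mark the named genes. The diagonal rows of points at the lower left are genes with 0 counts in all KO-labelled libraries, whose fitted fold change depends on the prior count; Col4a1, Col4a2 and H19 combine a high level with a large positive difference, and Col1a1 and Bgn a high level with a large negative one.

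The largest gains were scattered over gene families. Rhox5, an X-linked homeobox gene of the reproductive tract and placenta at chrX:37754608-37808878 (GRCm38), had 1731, 1821 and 1723 counts in the KO-labelled libraries and 9 and 5 in WT. Esx1, another X-linked homeobox gene known from placenta, stood at 19.3, 19.5 and 19.6 against 1.01 and 1.30 CPM, and Magea8, an X-linked gene of the testis-expressed Mage family, at 7.49, 9.66 and 9.82 against 1.23 and 1.30 CPM. Selp encodes P-selectin, the leukocyte adhesion receptor of platelets and endothelium, and stood at 23.6, 28.6 and 30.7 against 1.45 and 1.62 CPM. Foxd1, a forkhead factor of kidney stroma, stood at 14.7, 13.96 and 14.04 against 1.85 and 1.85 CPM. For all 5 genes the groups were separated by more than 5-fold. The mRNA labelled Npcd, with 587, 622 and 376 counts against 0 and 0, was at least 179.9-fold higher against a floor of 3 counts per library, but it overlaps the genes Nptxr and Cbx6 and its level is uncertain. Npcd lost its call without WT replicate 1 or 2.

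Several of the largest gains were muscle genes. Smyd1, a muscle-restricted methyltransferase needed for sarcomere assembly, stood at 9.26, 8.73 and 9.92 CPM in the KO-labelled libraries and 0.704 and 1.06 CPM in WT. Xirp1, an actin-binding protein of the muscle attachment sites, stood at 70.1, 94.1 and 105 against 8.89 and 9.40 CPM, and Synpo2l, a Z-disc protein, at 23.4, 23.9 and 25.6 against 3.17 and 2.69 CPM. Each was higher in all 3 KO-labelled libraries than in either WT library, while both cultures were still in growth medium. The log2FC was 3.39, 3.30 and 3.05, and the least firm of the 3, Synpo2l, had an edgeR adjusted p = 1.59e-10.

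The largest losses reached 0 counts. Unc5c, a netrin receptor, had 0, 0 and 0 counts in the KO-labelled libraries and 184 and 163 in WT, at least 56.5-fold lower. Bnc1, a zinc finger factor of epithelial and germ cells, had 0, 0 and 0 against 127 and 131 counts. Ripk3, the kinase that carries out necroptosis, had 1, 1 and 0 against 219 and 215 counts, and Scara3, a scavenger receptor family member, 0, 1 and 1 against 205 and 178. These 4 were the only called genes with at most 3 counts in each KO-labelled library and a WT mean of at least 5 CPM. Also far lower were St8sia2, which builds polysialic acid chains (log2FC -5.29), Capn6, a calpain without protease activity (-4.96), Cyp11a1, which starts steroid synthesis (-4.57), and Tmem45a (-4.74). All of these groups were separated by more than 10-fold.

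The 300-base windows around the start sites of 6 genes are shown as examples of genes with large differences and of the myogenic factor Myf5, with and without the sequences counted below. The windows run from 250 bases before to 50 bases after each RefSeq start on GRCm38.p6, and were picked after the values were seen. Capitals mark TGTGGT, the core recognised by Runx factors, or CCGGAAG, a high-affinity Ets-type sequence, on either strand. Col4a1 (chr8:11312777-11313076, - strand) and Col4a2 (chr8:11312555-11312854, + strand) are transcribed away from each other and their windows share 78 bases. Rhox5 (chrX:37754358-37754657, + strand), Bnc1 (chr7:81992250-81992549, - strand), Ripk3 (chr14:55788808-55789107, - strand) and Myf5 (chr10:107486085-107486384, - strand) complete the set.
Col4a1: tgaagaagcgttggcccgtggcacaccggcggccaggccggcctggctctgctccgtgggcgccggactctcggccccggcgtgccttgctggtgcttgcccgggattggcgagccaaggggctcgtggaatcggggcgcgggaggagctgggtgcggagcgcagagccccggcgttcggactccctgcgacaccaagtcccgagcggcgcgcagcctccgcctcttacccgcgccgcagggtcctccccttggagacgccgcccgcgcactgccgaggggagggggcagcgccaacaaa
Col4a2: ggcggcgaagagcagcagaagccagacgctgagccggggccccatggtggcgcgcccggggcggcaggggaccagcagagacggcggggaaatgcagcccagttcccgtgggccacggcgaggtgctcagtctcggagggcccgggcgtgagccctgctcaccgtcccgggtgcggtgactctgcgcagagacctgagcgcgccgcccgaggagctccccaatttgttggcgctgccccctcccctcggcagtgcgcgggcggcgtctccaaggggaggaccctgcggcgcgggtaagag
Rhox5: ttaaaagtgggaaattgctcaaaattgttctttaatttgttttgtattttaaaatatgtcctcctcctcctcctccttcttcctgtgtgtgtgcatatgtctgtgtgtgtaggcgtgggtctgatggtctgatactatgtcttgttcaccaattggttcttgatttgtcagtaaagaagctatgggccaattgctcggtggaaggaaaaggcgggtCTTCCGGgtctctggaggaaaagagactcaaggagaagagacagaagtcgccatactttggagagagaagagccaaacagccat
Bnc1: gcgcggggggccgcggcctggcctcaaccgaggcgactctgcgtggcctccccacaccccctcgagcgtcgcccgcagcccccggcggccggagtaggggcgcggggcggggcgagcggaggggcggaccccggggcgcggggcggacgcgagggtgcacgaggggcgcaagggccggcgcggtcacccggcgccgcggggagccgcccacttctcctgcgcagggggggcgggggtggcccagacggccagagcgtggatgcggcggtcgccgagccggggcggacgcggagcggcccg
Ripk3: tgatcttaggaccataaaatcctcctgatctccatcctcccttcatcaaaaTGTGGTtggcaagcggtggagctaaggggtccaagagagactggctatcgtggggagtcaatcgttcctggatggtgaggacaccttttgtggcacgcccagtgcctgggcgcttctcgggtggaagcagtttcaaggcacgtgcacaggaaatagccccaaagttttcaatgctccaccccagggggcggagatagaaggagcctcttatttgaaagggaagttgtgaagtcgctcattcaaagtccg
Myf5: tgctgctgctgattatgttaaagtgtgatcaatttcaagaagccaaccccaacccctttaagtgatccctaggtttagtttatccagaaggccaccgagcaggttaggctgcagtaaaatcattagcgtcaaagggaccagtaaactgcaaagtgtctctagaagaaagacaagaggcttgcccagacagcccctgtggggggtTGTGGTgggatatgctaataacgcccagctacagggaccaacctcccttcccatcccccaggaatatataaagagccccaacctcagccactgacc

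The 2 collagen windows and that of Bnc1 were rich in CpG, with 37, 33 and 50 CpG and 74%, 73.7% and 83.3% G plus C, and held neither sequence. Ripk3 and Myf5 had 10 and 3 CpG and 1 TGTGGT each, and Rhox5 had 5 CpG and 1 CCGGAAG. Over all 32851 promoter windows TGTGGT occurred in 16.8%, and in 12.4% of the windows of tested genes. Its share was 12.4% for genes called higher, 14.1% for genes called lower and 12.2% for genes not called. CCGGAAG occurred in 8.86% of all windows and in 16.5% of those of tested genes. It was found in 10.3% and 10.2% of the windows of genes called higher and lower, and in 18.0% for genes not called. For genes called 2-fold or more higher and lower the share was 4.76% and 5.6%, and that of TGTGGT 14.8% and 15.6%. The median number of CpG in those classes was 7.5 and 12, against 20 for tested genes. Of the 14187 tested genes, 10623 had a window. A match describes letters in a window and is not a binding site.

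Collagen genes moved in both directions. Over the collagen genes 6 of the 24 tested members rose and 10 fell (66.7% called, median log2FC -0.18), against 17.5% called and a median of -0.0011 over all tested genes. Collagen IV, the network former of basement membranes, was far higher. Col4a1 stood at 539.7, 600.2 and 614 CPM in the KO-labelled libraries and 60.1 and 58.5 CPM in WT, and Col4a2, its partner chain, at 384, 415 and 432 CPM in the KO-labelled libraries and 53.2 and 58.4 CPM in WT. No KO-labelled library came near the WT values (log2FC 3.30, SE 0.0948, edgeR adjusted p = 4.15e-17). Also higher were the fibrillar chains Col5a3 (log2FC 0.64) and Col27a1 (0.81), the anchoring fibril chain Col7a1 (1.08) and the network chain Col8a1 (0.49). Other fibrillar chains were lower, among them Col5a1 (log2FC -0.33) and Col11a1, with 1, 0 and 0 against 17 and 10 counts. Col1a1, the main chain of collagen I, stood at 18.8, 19.6 and 15.7 CPM in the KO-labelled libraries and 423 and 383 CPM in WT, more than 10-fold lower (log2FC -4.48, SE 0.217, edgeR adjusted p = 3.16e-13). Its partner chain Col1a2 differed far less, at 472, 454 and 413 against 728 and 699 CPM. Col3a1 stood at 638, 587 and 453 against 1038 and 898 CPM and all 3 main collagen VI chains fell together, Col6a1 (log2FC -1.21), Col6a2 (-1.55) and Col6a3 (-1.62). Within the KO-labelled group, replicate 3 was the lowest for each of these collagen VI chains. Col27a1 lost its call without KO-labelled replicate 2 or WT replicate 1 or 2 (log2FC 0.68 to 0.96). The calls of Col8a1 and Col11a1 were lost with limma on log2(TPM + 1) (log2FC 0.40, without Col11a1). Col5a1 lost its call without KO-labelled replicate 1 or 2 or 3 or WT replicate 1 or 2 (log2FC -0.40 to -0.24). Col5a1 also lost its call with the chromosome median taken out (log2FC -0.31).

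Basement membrane and provisional matrix genes moved both ways. Over the laminin and basement membrane genes 7 of the 24 tested members rose and 5 fell (50% called, median log2FC 0.08). Lama2, the laminin chain of the muscle fibre basement membrane, stood at 6.49, 6.54 and 4.87 CPM in the KO-labelled libraries and 1.85 and 1.76 CPM in WT, whereas Lama4, the chain of vessels and early muscle, stood at 0.318, 0.140 and 0.185 against 2.11 and 1.48 CPM. Fbln5, an elastic fibre protein, fell to 0.953, 0.700 and 1.205 against 7.87 and 7.08 CPM, and Nid2, a linker of laminin to collagen IV, to 8.35, 8.73 and 10.1 against 19.7 and 19.3 CPM. Tenascin C (Tnc), abundant in regenerating muscle, was higher at 1592, 1674 and 1750.5 against 999 and 974 CPM, while osteopontin (Spp1), a secreted adhesion protein, was lower at 929, 813 and 699.9 against 1539 and 1515 CPM. The lysyl oxidase Lox, which crosslinks collagen, stood at 410.1, 394 and 277 CPM in the KO-labelled libraries and 1196 and 1045 CPM in WT. Biglycan (Bgn), a small proteoglycan that binds collagen, stood at 336, 318 and 301 CPM in the KO-labelled libraries and 1117 and 1132 CPM in WT, a difference of log2FC -1.82, SE 0.0977, edgeR adjusted p = 1.82e-12. Over proteoglycans and heparan sulfate enzymes 2 of the 25 tested members rose and 7 fell (36% called, median log2FC -0.26). The members called numbered 5 without WT replicate 1 and 5 without WT replicate 2. Those that rose were Dcn (1.81, 1.12 and 0.602 against 0.308 and 0.324 CPM), a small proteoglycan, and Sulf1 (72.0, 66.6 and 62.05 against 57.6 and 52.1 CPM), a heparan sulfatase, and Hs3st1, a heparan 3-O-sulfotransferase, had 0, 0 and 0 against 47 and 52 counts, at least 16.2-fold lower. Dcn lost its call without KO-labelled replicate 1 or WT replicate 1 or 2 (log2FC 1.46 to 1.92). Sulf1 lost its call without KO-labelled replicate 1 or 2 or WT replicate 1 or 2 (log2FC 0.22 to 0.38).

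Matrix proteases shifted without a common direction. Over proteases and their inhibitors 7 of the 25 tested members rose and 7 fell (56.0% called, median log2FC -0.10), and the number called was 9 without WT replicate 1. Mmp9, a gelatinase linked to satellite cell activation, stood at 17.1, 17.5 and 15.01 against 3.56 and 3.15 CPM and Mmp15, a membrane-bound protease, at 85.6, 100.3 and 119.7 against 22.9 and 20.0 CPM. Adamts5, an aggrecanase, was higher (log2FC 1.498), as was the inhibitor Timp3 (451, 536 and 513 against 244 and 240.5 CPM). The other gelatinase, Mmp2, was lower (180.4, 173 and 149 against 268 and 271 CPM), as were Mmp19 (log2FC -1.305) and the fusion-linked Adam19 (-0.82).

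**Figure D2:**
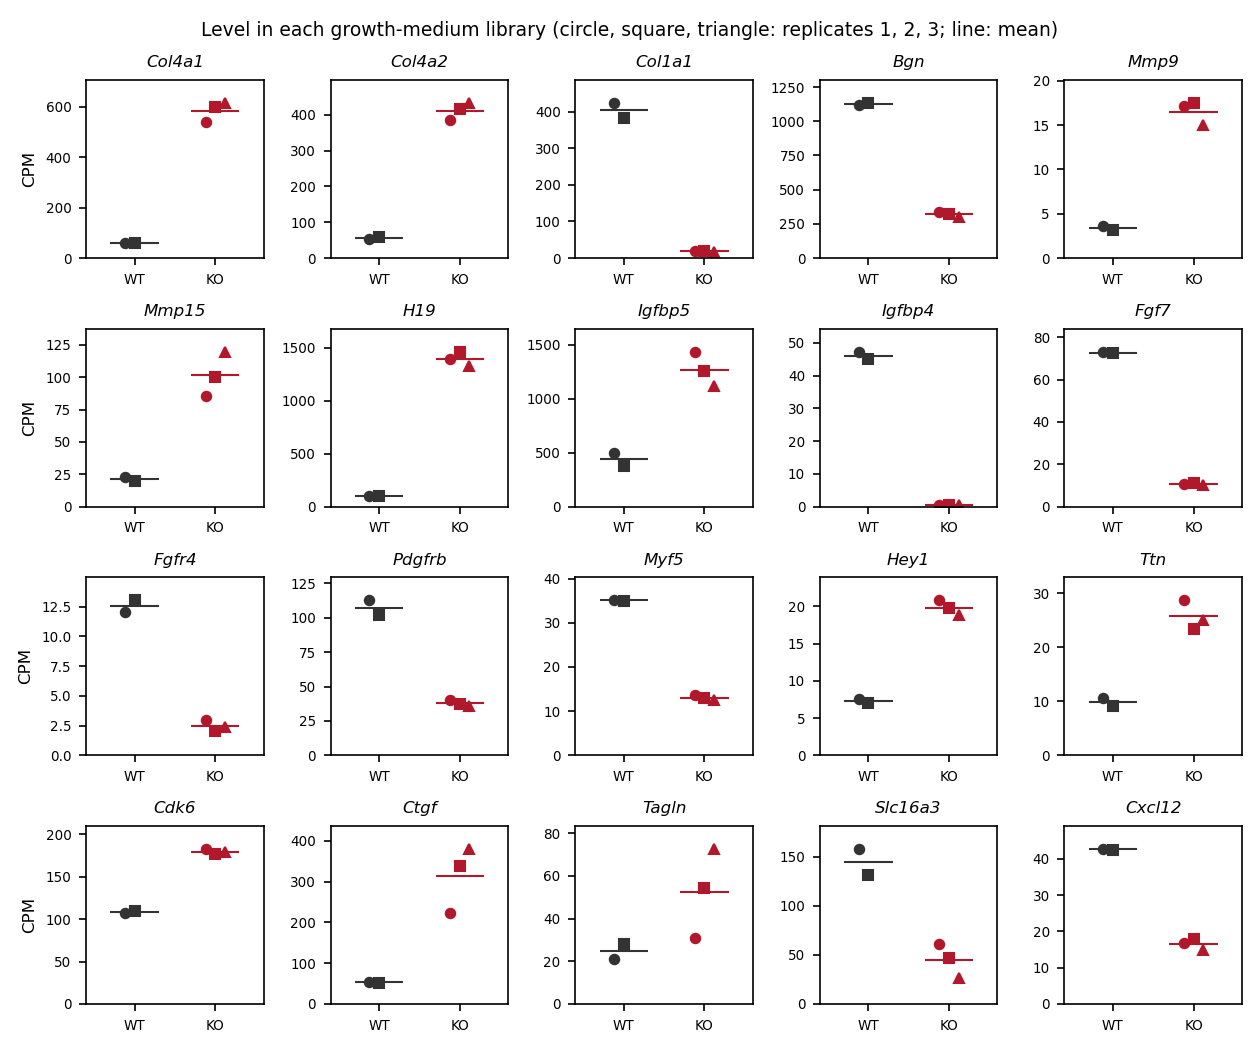
Each panel gives the level of 1 gene, in CPM on an axis from 0, in the 2 WT libraries (black) and the 3 KO-labelled libraries (red), with a line at the group mean. The 20 genes were picked from those named in the text, and in none do the groups overlap, as in 51.6% of all tested genes. Within the KO-labelled group Ctgf and Tagln are lowest in replicate 1 and highest in replicate 3, and Slc16a3 the reverse.

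Receptors for the matrix and for neighbouring cells also differed. Of 19 tested integrins, Itgb6 (log2FC 1.48), Itga6 (0.78) and Itga5 (0.32) were higher and Itga11 (-1.94) and Itgb3 (-1.13) lower (26.3% called). Itga6 is part of the laminin receptor, Itga11 is a receptor for fibrillar collagen and Itgb3 binds vitronectin. Over cadherins and junction genes 8 of the 26 tested members rose and 6 fell (53.8% called, median log2FC -0.09). Cdh15, the M-cadherin of satellite cells and myoblasts, was higher (202, 214 and 234 against 123 and 137 CPM), as was the melanoma cell adhesion molecule Mcam (111, 128 and 150.4 against 64.3 and 72.4 CPM). Jam2 (log2FC -1.004), a junction molecule with a role in myoblast fusion, Alcam (-0.71) and the photoreceptor cadherin Cdhr1 (-4.64) were lower. Itga5 lost its call without WT replicate 2 (log2FC 0.27).

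Among guidance cues and their receptors more calls were lower than higher. Over 53 tested axon guidance genes, 7 rose and 16 fell (43.4% called, median log2FC -0.13). Besides Unc5c, the losses took in the secreted cue Slit2 (0.771, 0.747 and 0.278 CPM in the KO-labelled libraries and 7.13 and 7.18 CPM in WT), its receptor Robo2 (0.136, 0.0467 and 0.185 against 0.704 and 0.695 CPM), and the semaphorins Sema3d (0.363, 0.0467 and 0.185 against 3.04 and 2.73 CPM) and Sema3a (log2FC -1.74). Ephb6, an ephrin receptor without kinase activity, stood at 10.6, 8.26 and 5.84 against 32.8 and 30.2 CPM. Among those higher were Sema3c (13.6, 14.7 and 13.8 against 5.81 and 7.41 CPM) and the semaphorin receptor Plxna4 (1.54, 1.45 and 1.48 against 0.396 and 0.139 CPM). Plxna4 lost its call with limma on log2(TPM + 1) (log2FC 0.18).

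The insulin-like growth factor axis held some of the largest changes in abundance. Over this list 6 of the 17 tested members rose and 4 fell (58.8% called, median log2FC 0.30). H19, a maternally expressed noncoding RNA that is a host of a growth-restricting microRNA at chr7:142575530-142578146, stood at 1397, 1462 and 1332 CPM in the KO-labelled libraries and 96.6 and 96.1 CPM in WT (log2FC 3.86, SE 0.125, edgeR adjusted p = 1.74e-16). Its imprinted neighbour Igf2 had at most 3 counts in any of the 5 libraries. The binding proteins split. Igfbp5, the main one of differentiating myoblasts, stood at 1435, 1257 and 1120.5 CPM in the KO-labelled libraries and 497 and 378 CPM in WT, whereas Igfbp4, at chr11:99040005-99052655, was nearly lost at 0.408, 0.467 and 0.602 CPM in the KO-labelled libraries and 47.2 and 44.96 CPM in WT (log2FC -6.53, SE 0.204, edgeR adjusted p = 1.29e-16). Igfbp3 (log2FC -1.59), Igfbp6 (-0.73) and Igfbp7 (-0.61) were also lower, so 4 binding proteins fell. Igfbp2 was called higher, at 2299, 2341 and 2333 against 1791 and 1771 CPM, and lost its call in 6 of 15 alternatives. The mRNA-binding proteins Igf2bp1 (11.8, 11.3 and 11.6 against 1.98 and 2.50 CPM) and Igf2bp2 (117, 107 and 91.5 against 74.9 and 68.1 CPM), which stabilise growth-related transcripts, were higher.

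Other imprinted genes did not share one direction. Of 21 tested, H19, Dcn and Sgce were higher and Cdkn1c, Mest, Peg10 and Zrsr1 lower (33.3% called). Cdkn1c, the imprinted cyclin-dependent kinase inhibitor p57, had 1, 0 and 2 counts against 34 and 30. Mest, a paternally expressed gene, stood at 1.77, 1.73 and 2.22 against 4.35 and 4.54 CPM and Peg10, a retroviral-like gene, at 42.5, 38.8 and 36.1 against 63.5 and 57.0 CPM. Sgce, which codes for epsilon-sarcoglycan, was close between groups at 36.2, 34.1 and 28.0 against 26.4 and 26.8 CPM, and Zrsr1, a splicing factor relative, at 6.62, 5.14 and 5.19 against 8.14 and 7.32 CPM. Dcn lost its call without KO-labelled replicate 1 or WT replicate 1 or 2 (log2FC 1.46 to 1.92). Sgce lost its call without KO-labelled replicate 1 or 2 or WT replicate 1 or 2 (log2FC 0.25 to 0.31). Zrsr1 lost its call without KO-labelled replicate 2 or 3 or WT replicate 1 (log2FC -0.39 to -0.35). Sgce also lost its call with the chromosome median taken out (log2FC 0.27).

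Among growth factor ligands more calls were lower than higher. Over the ligands 2 of the 35 tested members rose and 9 fell (31.4% called, median log2FC -0.22). Fgf7, the keratinocyte growth factor, stood at 10.7, 11.1 and 10.2 CPM in the KO-labelled libraries and 73.1 and 72.4 CPM in WT (log2FC -2.77, SE 0.122, edgeR adjusted p = 4.33e-14). Fgf10 (log2FC -3.76), Gas6, the ligand of the Axl receptor (-3.01), angiopoietin 1 (Angpt1, -2.09) and Hgf, the activator of quiescent satellite cells (-1.38), were lower as well. The 2 higher ligands were Vegfc (16.2, 17.8 and 21.7 against 10.3 and 7.73 CPM), a lymphatic growth factor, and Kitl (31.7, 30.8 and 31.4 against 22.2 and 18.1 CPM), the stem cell factor. Over the receptors 4 of the 27 tested members rose and 6 fell (37.0% called, median log2FC -0.03). Fgfr4, the fibroblast growth factor receptor typical of myoblasts, stood at 2.99, 2.05 and 2.41 CPM in the KO-labelled libraries and 12.01 and 13.0 CPM in WT, and Pdgfrb, the receptor of mesenchymal cells, at 40.3, 37.3 and 35.7 CPM in the KO-labelled libraries and 113 and 102 CPM in WT. Ntrk3, a neurotrophin receptor, had 0, 1 and 1 against 39 and 30 counts. The receptors that rose were Ror1 (log2FC 1.78), Ret (0.99), Axl (0.42) and Igf1r (0.34). Axl lost its call with offset for the chromosome median (log2FC 0.23). Kitl lost its call without WT replicate 2 (log2FC 0.50). Igf1r lost its call without KO-labelled replicate 1 or 2 or WT replicate 1 or 2 (log2FC 0.27 to 0.37). Igf1r also lost its call with the chromosome median taken out (log2FC 0.15).

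Readouts of signalling downstream of these receptors were mixed. Over Erk feedback and immediate early genes 7 of the 30 tested members rose and 5 fell (40% called, median log2FC 0.17). That total became 6 without WT replicate 1 and 6 without WT replicate 2. Egr1 stood at 86.3, 85.2 and 77.9 against 154 and 154 CPM and Egr3 at 10.6, 10.6 and 8.80 against 16.8 and 16.5 CPM, both lower in every KO-labelled library. The lower genes also took in Fos (log2FC -0.67), Dusp6 (-0.51) and Dusp4 (-0.37). The feedback inhibitors Spry1 (log2FC 2.95) and Spry4 (0.61) and the immediate early gene Fosb (0.84) were higher. Fos lost its call without KO-labelled replicate 1 or 3 or WT replicate 1 or 2 (log2FC -0.73 to -0.56). The calls of Dusp6, Dusp4 and Fosb were lost without WT replicate 1 (log2FC 0.73 for those higher and -0.31 to -0.25 for those lower). Spry4 lost its call without WT replicate 2 (log2FC 0.52).

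Wnt genes changed in large number and in both directions. Of 41 tested genes, 10 rose and 12 fell (53.7% called). Among the ligands, Wnt7b stood at 10.8, 11.4 and 10.1 CPM in the KO-labelled libraries and 1.41 and 1.48 CPM in WT and Wnt4 at 7.58, 9.43 and 10.1 against 3.08 and 3.33 CPM, both higher, whereas Wnt10a (5.67, 6.40 and 6.95 against 23.4 and 23.8 CPM) was lower and Wnt5a had 0, 0 and 0 against 25 and 31 counts, at least 9.16-fold lower. The secreted antagonists also split, with Sfrp1 at 33.8, 34.7 and 33.3 against 5.37 and 5.09 CPM and Dkk2 at 6.81, 5.04 and 3.06 against 1.10 and 0.741 CPM higher and Sfrp2 at 0.0907, 0.140 and 0.0927 against 2.60 and 1.90 CPM lower. Nkd2, an intracellular inhibitor of the pathway, had 0, 0 and 0 against 47 and 38 counts. Lef1, a transcription factor that responds to the pathway, was higher at 18.3, 21.9 and 21.9 against 10.2 and 9.96 CPM, and Rspo3, an enhancer of Wnt signals, was lower (log2FC -1.31). Rspo3 lost its call without KO-labelled replicate 1 or 2 or 3 or WT replicate 1 or 2 (log2FC -1.37 to -1.17).

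In the Tgf-beta and Bmp list 11 of the 45 tested members rose and 6 fell (37.8% called, median log2FC 0.01). The number called was 11 without WT replicate 2. The Bmp ligands Bmp4 (0.499, 0.327 and 0.232 CPM in the KO-labelled libraries and 5.15 and 4.12 CPM in WT) and Bmp7 (3.54, 2.33 and 2.22 against 6.95 and 7.73 CPM) and the receptor Bmpr1b (1.59, 1.54 and 2.04 against 5.19 and 5.05 CPM) were lower. Grem1, a secreted Bmp antagonist, was lower too (31.8, 26.8 and 33.2 against 90.2 and 73.5 CPM), but Nog, another antagonist, was higher (7.44, 9.38 and 9.73 against 2.55 and 3.15 CPM). Tgfb2 (56.4, 61.4 and 65.0 against 29.8 and 32.2 CPM), the receptors Tgfbr1 (log2FC 0.51) and Tgfbr3 (0.71), their mediator Smad3 (0.54) and the stress-responsive family member Gdf15 (30.7, 35.7 and 46.5 against 19.4 and 19.2 CPM) were higher. Tgfbr1 lost its call without WT replicate 2 (log2FC 0.48). Tgfbr3 lost its call without KO-labelled replicate 2 or WT replicate 2 (log2FC 0.50 to 0.67).

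Notch and Hedgehog genes gave 7 and 4 calls. Of 24 tested Notch pathway genes, the receptor Notch1 (log2FC 0.83), the modifier Dtx4 (0.73) and the target genes Hey1 (1.44) and Heyl (2.00) were higher, and the receptor Notch3 (-0.96), the ligand Dll1 (-2.01) and the coactivator Maml2 (-0.48) were lower (29.2% called). Of 14 tested Hedgehog pathway genes none rose and 4 fell (28.6% called against 17.5% of all genes). Among those that fell were the effector Gli2 (log2FC -1.69), the coreceptor Boc (-0.88) and the decoy receptor Hhip (-0.74). Heyl lost its call with limma on log2(TPM + 1) (log2FC 0.52). Dll1 lost its call without WT replicate 2 (log2FC -1.67). Maml2 lost its call without KO-labelled replicate 3 or WT replicate 1 (log2FC -0.39 to -0.34). Hhip lost its call without KO-labelled replicate 1 or 2 or 3 or WT replicate 1 or 2 (log2FC -0.81 to -0.65). Hhip also lost its call with the chromosome median taken out (log2FC -0.71).

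Among the myogenic regulators 5 of the 27 tested members rose and 4 fell (33.3% called, median log2FC 0.11). Myf5, the early determination factor, stood at 13.6, 13.0 and 12.5 CPM in the KO-labelled libraries and 35.1 and 35.1 CPM in WT, a difference of log2FC -1.43, SE 0.0848, edgeR adjusted p = 1.34e-11. Myod1 stood at 479.6, 482 and 538 against 404 and 419 CPM and Pax7, the satellite cell factor, at 38.1, 36.3 and 34.5 against 50.1 and 43.02 CPM, and neither passed the test (edgeR adjusted p = 0.282 and edgeR adjusted p = 0.0576). The repressors Hey1, Heyl and Msc (log2FC 1.39), the inhibitor Id2 (0.48) and the transcription factor Mef2a (0.50) were higher. Twist2 (log2FC -0.63) and Snai2 (-0.50), factors of undifferentiated mesenchyme, and the E-protein Tcf4 (-0.33) were lower. Of 35 tested sarcomeric and other muscle structural genes 4 rose and none fell (11.4% called against 17.5% of all genes). The 4 that rose were Des (log2FC 0.68), the intermediate filament of muscle, titin (Ttn, 1.38), cardiac troponin T (Tnnt2, 0.58) and the calcium release channel Ryr1 (1.82). The median log2FC of the list was 0.58, with 24 members above 0. With library size alone, limma on TPM, the growth-medium groups alone or the chromosome offset, 1 gene of this list was called lower. DESeq2 called 7 higher and limma on log2(TPM + 0.1) called 9 higher. Heyl lost its call with limma on log2(TPM + 1) (log2FC 0.52). Mef2a lost its call with offset for the chromosome median (log2FC 0.31). Tcf4 lost its call without KO-labelled replicate 3 or WT replicate 1 or 2 (log2FC -0.36 to -0.24). Tnnt2 lost its call without WT replicate 1 or 2 (log2FC 0.56 to 0.63). Ryr1 lost its call without KO-labelled replicate 1 or WT replicate 1 or 2 (log2FC 1.61 to 2.08).

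Cell cycle genes were called at a share near that of all genes. Of 30 tested genes, 5 rose and 1 fell (20% called against 17.5% of all genes). With the chromosome median taken out 1 gene, Cdk6, was called. Cdk6 was the clearest, at 183, 177 and 179 CPM in the KO-labelled libraries and 108 and 110.1 CPM in WT. Ccnd1 (log2FC 0.41), Ccne1 (0.40), Cdk1 (0.36) and Cdc25a (0.32) were higher and Ccna2 (-0.28) lower, each by less than 1.5-fold. Of 9 tested Cdk inhibitors and Rb family genes, Cdkn1c and Cdkn2d (34.7, 27.5 and 26.2 against 38.8 and 38.5 CPM) were lower (22.2% called). Cdkn1a, the p21 inhibitor, stood at 203, 204 and 176 against 194 and 199.5 CPM with overlapping groups. Over the p53 targets 6 of the 19 tested members rose and 1 fell (36.8% called, median log2FC 0.07). The members called numbered 3 without WT replicate 1 and 4 without WT replicate 2. Plk2 (log2FC 0.94), Aen (0.56) and Gadd45a (0.73) were higher and Sesn1 (-0.51) lower. Ccnd1 lost its call without WT replicate 1 or 2 (log2FC 0.42). The calls of Ccne1, Cdk1 and Cdc25a were lost without KO-labelled replicate 3 or WT replicate 1 or 2 (log2FC 0.27 to 0.42). Ccna2 lost its call without KO-labelled replicate 1 or 2 or 3 or WT replicate 1 or 2 (log2FC -0.30 to -0.24). Cdkn2d lost its call without KO-labelled replicate 2 or 3 or WT replicate 1 or 2 (log2FC -0.40 to -0.32). Gadd45a lost its call without WT replicate 2 (log2FC 0.69). Sesn1 lost its call without WT replicate 1 (log2FC -0.44). Ccnd1, Ccne1, Cdk1, Cdc25a and Ccna2 also lost their calls with the chromosome median taken out (log2FC 0.21 to 0.27 for those higher and -0.16 for those lower).

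Among contractile and cytoskeletal genes of the serum-responsive kind every call was higher, although 1 lower call appeared with library size alone, without the filter, with a mean count of at least 50, with DESeq2 and with limma on TPM, and 2 with the growth-medium groups alone. Over this list 11 of the 30 tested members rose and 0 fell (36.7% called, median log2FC 0.24), and the number called was 5 without WT replicate 1 and 7 without WT replicate 2, against a background of 7.36% higher. Actg2, a smooth muscle actin, stood at 19, 29.2 and 32.8 CPM in the KO-labelled libraries and 11.1 and 14.2 CPM in WT and Tagln, which binds actin bundles, at 30.7, 54.3 and 72.5 CPM in the KO-labelled libraries and 21.1 and 28.3 CPM in WT. Over the targets of the Hippo pathway effectors Yap and Taz 8 of the 22 tested members rose and 0 fell (36.4% called, median log2FC 0.19). That total became 4 without WT replicate 1, and 5 with the chromosome median taken out, 4 higher and 1 lower. With library size alone, without the filter, with limma on log2(TPM + 0.1) and with the replicate block 1 was lower. With the growth-medium groups alone 2 were lower. Ctgf, a matricellular protein and the best known of these targets, stood at 224, 337 and 379.7 CPM in the KO-labelled libraries and 54.1 and 51.5 CPM in WT (log2FC 2.57, SE 0.177, edgeR adjusted p = 1.62e-10). Ankrd1 (438, 503 and 508 against 275 and 304 CPM) and F3, tissue factor (56.4, 63.1 and 57.6 against 39.0 and 37.9 CPM), were higher too. The KO-labelled libraries differed among themselves in these genes, with Ctgf, Actg2 and Tagln lowest in replicate 1 and highest in replicate 3. The summed level of the smooth muscle markers was 698, 919 and 1059 CPM in the KO-labelled libraries and 708 and 770.4 CPM in WT, while Myh11, which defines that cell type, had at most 1 count. The part of this spread in the results was not tested. Tagln lost its call without WT replicate 1 (log2FC 0.91).

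Patterning genes differed locus by locus. All 6 Hox genes that rose lie in the HoxB cluster on chromosome 11. They were Hoxb3 (log2FC 1.18), Hoxb4 (1.71), Hoxb5 (1.12), Hoxb6 (1.29), Hoxb9 (1.63) and Hoxb13 (1.27). Hoxb7, in the same cluster, was lower, with 0, 0 and 1 against 11 and 15 counts, as was Hoxa4 (0.136, 0.233 and 0.185 against 0.792 and 1.02 CPM), so 8 of 28 tested Hox genes were called (28.6%). Over other homeobox, forkhead and T-box identity genes 4 of the 39 tested members rose and 12 fell (41.0% called, median log2FC -0.08). The number called was 10 without WT replicate 1. Those higher were Foxd1, Lbx1 (log2FC 1.604), a factor of migrating muscle precursors, Tbx4 (1.87), a hindlimb factor, and Tbx3 (0.36). Foxo1, a driver of atrophy genes, was lower at 14.3, 14.01 and 12.5 against 31.2 and 26.8 CPM, as were Barx2 (log2FC -4.51), Foxf1 (-3.72) and Osr1 (-2.46). Hoxb5 lost its call without KO-labelled replicate 1 or 2 or WT replicate 1 or 2 (log2FC 0.99 to 1.27). Hoxb6 lost its call without WT replicate 1 (log2FC 1.16). The calls of Hoxb13 and Hoxb7 were lost without WT replicate 2 (log2FC 1.06, without Hoxb7). Tbx3 lost its call without WT replicate 1 or 2 (log2FC 0.36 to 0.39).

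Among germline genes Rhox5 had the largest difference, and Esx1 and Magea8, named above, were not in this list. Of 12 tested germline and placental genes, Rhox5 rose and Peg10 and the X-linked Xlr3a (0.363, 0.233 and 0.139 against 3.26 and 3.61 CPM) fell (25% called). Of 30 tested genes of DNA methylation and heterochromatin, Mbd3 (208, 214 and 236 against 170.4 and 169 CPM) rose and Dnmt3l, with 0, 0 and 0 against 7 and 5 counts, fell (6.67% called). Of 28 Polycomb genes, Phf19 (log2FC 0.52) rose and Cbx7 (-0.55) and Ezh1 (-0.34) fell (10.7%). These shares stand beside 17.5% of all tested genes, and the fit on the growth-medium groups alone called 5 genes in each of the 2 chromatin lists. Mbd3 lost its call without KO-labelled replicate 3 or WT replicate 1 or 2 (log2FC 0.31 to 0.39). The calls of Phf19 and Cbx7 were lost without WT replicate 1 (log2FC 0.42 for those higher and -0.51 for those lower). Ezh1 lost its call without KO-labelled replicate 2 or 3 or WT replicate 1 or 2 (log2FC -0.39 to -0.21). Mbd3 and Ezh1 also lost their calls with the chromosome median taken out (log2FC 0.24 for those higher and -0.33 for those lower).

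Among genes of innate immunity more calls were lower than higher, and most members were not called. Over interferon response genes 2 of the 42 tested members rose and 10 fell (28.6% called, median log2FC -0.40). The members called numbered 7 without KO-labelled replicate 2, 5 without WT replicate 1 and 7 without WT replicate 2. Isg15, a ubiquitin-like protein induced by interferon, stood at 0.681, 0.607 and 0.278 CPM in the KO-labelled libraries and 1.76 and 1.81 CPM in WT, and Ddx58, the sensor RIG-I, at 6.40, 5.79 and 4.54 against 9.37 and 9.26 CPM. The 2 that rose, Rsad2 (0.907, 0.607 and 0.741 against 0.0440 and 0.0463 CPM) and Cmpk2 (0.998, 0.514 and 0.741 against 0.176 and 0.139 CPM), are neighbours on chromosome 12. Over antigen presentation genes 2 of the 18 tested members rose and 8 fell (55.6% called, median log2FC -0.45), and the number called was 6 without WT replicate 1. The peptide transporter Tap2 stood at 8.98, 8.17 and 5.93 against 16.6 and 14.1 CPM, whereas B2m, the light chain of class I molecules (328, 343 and 275 against 213 and 227 CPM), and Nlrc5, their transactivator (5.81, 4.39 and 3.61 against 0.792 and 0.741 CPM), were higher. Within the chemokine and cytokine list 1 of the 25 tested members rose and 6 fell (28.0% called, median log2FC -0.41). Cxcl12, which attracts muscle precursors, stood at 16.8, 17.9 and 14.9 CPM in the KO-labelled libraries and 42.7 and 42.5 CPM in WT, and Il33 (3.31, 2.19 and 0.927 against 7.79 and 6.48 CPM) and Il11 (2.36, 1.40 and 1.58 against 5.37 and 5.37 CPM) were lower. The 1 gene that rose was Il34 (6.53, 7.24 and 5.84 against 4.66 and 4.86 CPM). Rsad2 lost its call with limma on log2(TPM + 1). Cmpk2 lost its call without WT replicate 1 or 2 (log2FC 2.06 to 2.41). Il34 lost its call without KO-labelled replicate 1 or 2 or WT replicate 1 or 2 (log2FC 0.38 to 0.49).

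Among cell death genes the loss of Ripk3 was the largest difference. Over necroptosis and death receptor genes 2 of the 26 tested members rose and 5 fell (26.9% called, median log2FC -0.09). That total became 4 without WT replicate 1 and 4 without WT replicate 2. The adaptor kinase Ripk2 (30.4, 32.6 and 35.4 against 53.7 and 53.8 CPM) was lower and the signalling adaptor Traf1 (10.2, 9.80 and 12.2 against 4.53 and 4.35 CPM) higher. The deubiquitinase Cyld (log2FC 0.35) was the other gene to rise, and Gsdme (-0.65), Casp1 and Casp4 the others to fall. Casp1 had 0, 0 and 0 against 3 and 4 counts and Casp4 8, 6 and 0 against 21 and 15. In the Bcl2 family 7 of 18 tested members were called (38.9%), and 0 without WT replicate 1. Pmaip1 (log2FC 0.83), Bid (0.55) and Bax (0.39) were higher, and Mcl1 (-0.32), Bmf, Bcl2 and Bnip3l were lower. The calls of Cyld and Casp1 were lost without KO-labelled replicate 1 or 2 or 3 or WT replicate 1 or 2 (log2FC 0.30 to 0.42, without Casp1). Gsdme lost its call without WT replicate 2 (log2FC -0.43). The calls of Casp4, Bid and Mcl1 were lost without WT replicate 1 (log2FC 0.46 for those higher and -1.65 to -0.26 for those lower). Bcl2 lost its call without KO-labelled replicate 1 or 2 or WT replicate 1 or 2 (log2FC -0.70 to -0.35). Pmaip1 lost its call without WT replicate 1 or 2 (log2FC 0.76 to 0.93). The calls of Bax and Bmf were lost without KO-labelled replicate 3 or WT replicate 1 or 2 (log2FC 0.35 to 0.42 for those higher and -0.75 to -0.51 for those lower). Bnip3l lost its call without KO-labelled replicate 3 or WT replicate 1 (log2FC -0.30 to -0.26). Bcl2, Bax, Mcl1 and Bnip3l also lost their calls with the chromosome median taken out (log2FC 0.20 for those higher and -0.48 to -0.19 for those lower).

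In the glycolysis and hypoxia list none of 34 tested members rose and 7 fell (median log2FC -0.22). The share called, 20.6%, was near the 17.5% of all tested genes. Slc16a3, the lactate exporter, stood at 61.6, 46.7 and 26.7 CPM in the KO-labelled libraries and 158 and 131 CPM in WT (log2FC -1.68, SE 0.193, edgeR adjusted p = 6.93e-07), and Pdk1, the kinase that holds pyruvate out of mitochondria, at 74.7, 54.6 and 20.9 CPM in the KO-labelled libraries and 102 and 75.1 CPM in WT. In both genes KO-labelled replicate 3 was lowest, and for Pdk1 replicate 1 nearly reached WT. The summed level of the list was 29123 and 27834 CPM in KO-labelled replicates 1 and 2, 23886 CPM in replicate 3, and 30413 and 29315 CPM in WT. Only 2 genes of the list were called without WT replicate 1, and without KO-labelled replicate 3 the list had 3 higher and 5 lower calls and a median log2FC of -0.12. Over glutathione and Nrf2 genes 2 of the 34 tested members rose and 8 fell (29.4% called, median log2FC -0.21). The number called was 5 without WT replicate 2. Mgst1 (log2FC -1.19) and Mgst3 (-0.76), microsomal glutathione transferases, were lower, while Txnrd1, the cytosolic thioredoxin reductase (0.72), and Gclc (0.28) were higher. Pdk1 lost its call without KO-labelled replicate 2 or WT replicate 1 (log2FC -0.89 to -0.57). The value of Pdk1 moved without KO-labelled replicate 3 (log2FC -0.46). Gclc lost its call without KO-labelled replicate 3 or WT replicate 1 or 2 (log2FC 0.25 to 0.31). Gclc also lost its call with the chromosome median taken out (log2FC 0.23).

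Further lists covered housekeeping, the endoplasmic reticulum and ion channels. Of 74 cytosolic ribosomal protein genes 7 rose and none fell (9.46% called), with a median log2FC of 0.10. None of the 7 was called without WT replicate 1, and with scaling by library size alone 4 rose, 1 fell and the median was 0.04. Of 41 respiratory chain genes, Cox6c (118, 134 and 123 against 80.7 and 92.7 CPM) and Cox6b1 (161, 173 and 163 against 120.3 and 136 CPM) rose (4.88% called). Of 27 cholesterol synthesis genes, Sqle (362, 356 and 321 against 275 and 269 CPM) and Tm7sf2 (log2FC 0.45) rose and Ebp (-0.36) was among those that fell (14.8% called). Of 22 ER chaperone genes none rose and 5 fell, Sdf2l1 (log2FC -0.53), Dnajb9 (-0.49), Pdia6 (-0.31), Xbp1 (-0.31) and P4hb (-0.24), each by less than 1.5-fold (22.7% called against 17.5% of all genes). None of the list was called without WT replicate 2. Of 34 ion channels 3 rose and 6 fell (26.5% called). The inward rectifier Kcnj2, which hyperpolarises myoblasts before fusion, had 1, 0 and 0 against 34 and 37 counts. Cox6c lost its call without WT replicate 1 (log2FC 0.45). Cox6b1 lost its call without KO-labelled replicate 2 or 3 or WT replicate 1 or 2 (log2FC 0.31 to 0.46). Tm7sf2 lost its call without KO-labelled replicate 2 or WT replicate 2 (log2FC 0.29 to 0.41). The calls of Ebp, Xbp1 and P4hb were lost without KO-labelled replicate 1 or 3 or WT replicate 1 or 2 (log2FC -0.37 to -0.17). The calls of Sdf2l1 and Dnajb9 were lost without WT replicate 2 (log2FC -0.44 to -0.38). Pdia6 lost its call without WT replicate 1 or 2 (log2FC -0.30). Cox6b1, Tm7sf2 and Ebp also lost their calls with the chromosome median taken out (log2FC 0.19 to 0.39 for those higher and -0.26 for those lower).

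**Figure D3:**
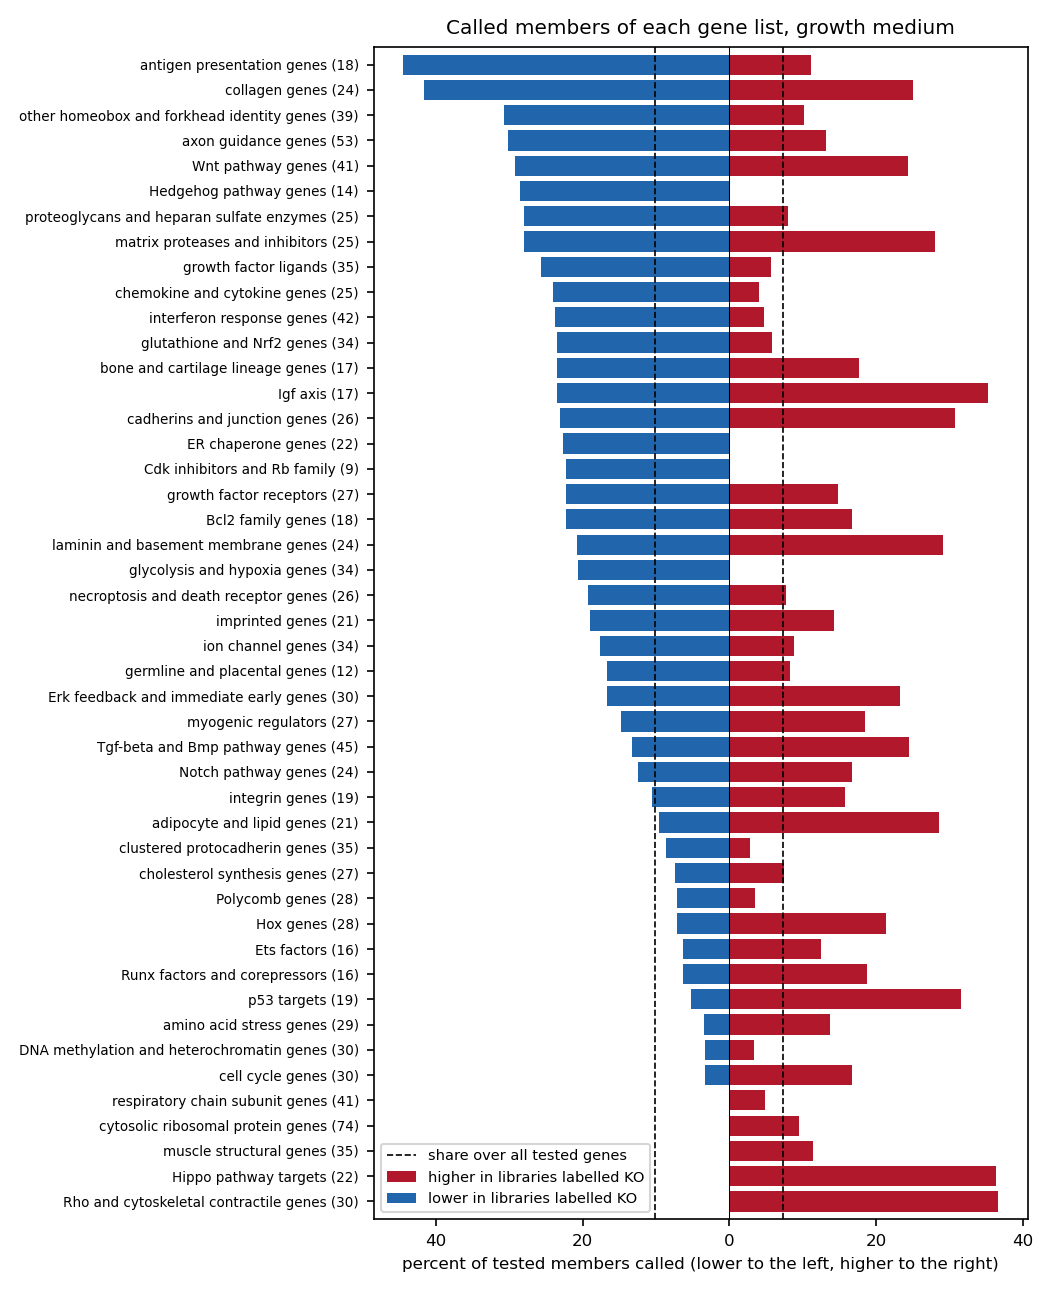
Bars give the percent of tested members of each list, with their number in parentheses, called higher (red, right) or lower (blue, left) in the KO-labelled libraries; the dashed lines give 7.36% and 10.1%, the shares over all tested genes. The longest bars belong to antigen presentation and collagen genes on the lower side and to contractile genes, Hippo targets and the Igf axis on the higher side, and lists are not independent of each other.

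The direction of the differences varied by chromosome. RefSeq places 13417 of the tested genes (94.6%) on a chromosome. On chromosome 7, 197 genes were higher and 59 lower, and on chromosome 10, 120 were higher and 54 lower. The reverse held for chromosome 14, with 12 higher and 96 lower, and chromosome 3, with 25 and 143. The median log2FC was 0.19 on chromosome 7, 0.13 on chromosome 10, -0.12 on chromosome 3 and -0.17 on chromosome 14. Each KO-labelled library gave nearly the same value against the WT mean, for example 0.17, 0.18 and 0.16 on chromosome 7 and -0.14, -0.17 and -0.16 on chromosome 14. The later days repeated it in separate libraries, with medians of 0.16, 0.20 and 0.16 on chromosome 7 and -0.11, -0.12 and -0.17 on chromosome 14 on days 1, 3 and 6.

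Stretches within chromosomes shared a direction. In windows of 20 Mb holding at least 20 genes of at least 5 CPM, 15 of 134 windows had a median log2FC above 0.15 and 4 had one below -0.15. All 8 windows of chromosome 7 lay between 0.17 and 0.28. The highest medians were 0.38 at 20 to 40 Mb and 0.31 at 40 to 60 Mb of chromosome 15, followed by 0.31 at 80 to 100 Mb of chromosome 10. When the chromosome median was taken out gene by gene, 2031 genes were called, of which 1888 were also called without this step. The copy number of the chromosomes in these cells was not tested.

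**Figure D4:**
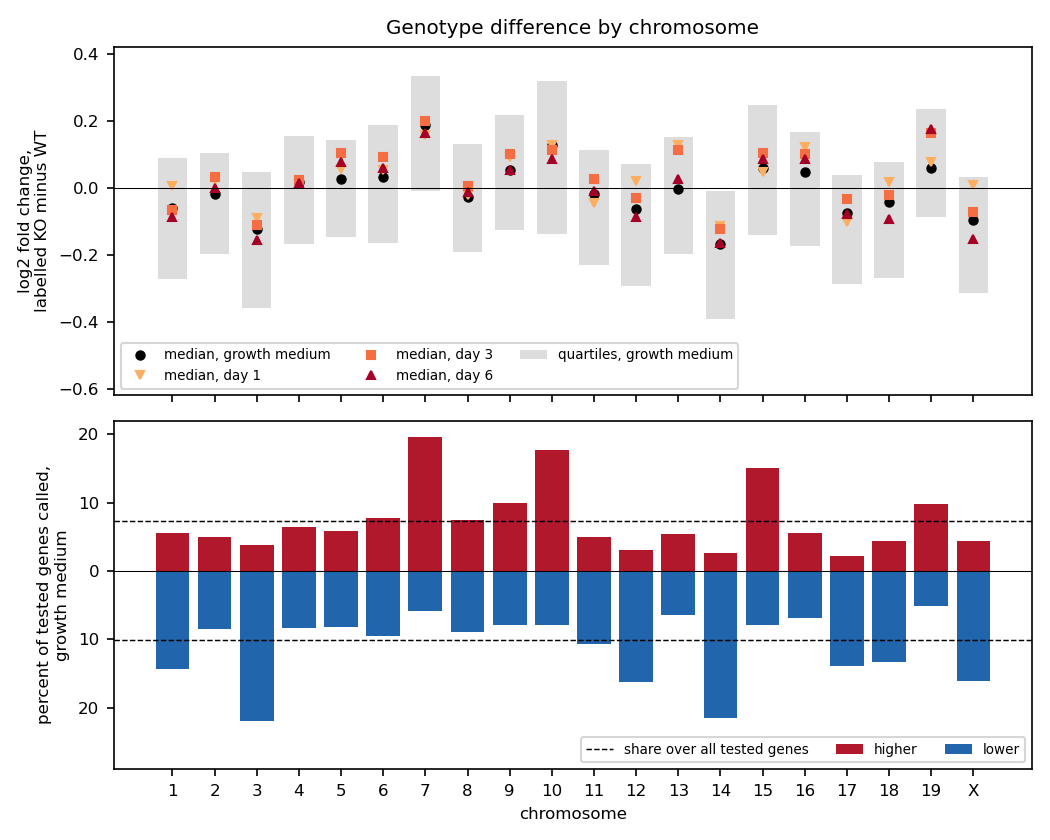
Upper panel: the median log2 fold change of the tested genes of each chromosome in growth medium and on days 1, 3 and 6, with grey boxes from the lower to the upper quartile in growth medium. Lower panel: the percent of tested genes of each chromosome called higher or lower in growth medium, with dashed lines at the shares over all tested genes; chromosomes 7, 10 and 15 have the largest shares on the higher side and chromosomes 3 and 14 on the lower side.

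The difference of many genes changed once serum was lowered. The test of that change, the interaction of genotype and day in edgeR, had 560 calls at day 1 (3.95% of tested genes), 1519 at day 3 (10.7%) and 1839 at day 6 (13%). Of the 30 genes with the largest growth-medium differences, 17 had a called interaction on day 6. Since those genes were taken for the same growth-medium values, this count only describes them. The muscle genes Smyd1 and Synpo2l lost most of their lead in log2FC, which was 1.44 and 0.87 on day 6. Their interactions were -1.95, SE 0.268, edgeR adjusted p = 1.53e-05, and -2.18, SE 0.250, edgeR adjusted p = 1.34e-06. In mean CPM, KO-labelled against WT, Smyd1 went from 9.30 against 0.884 in growth medium to 78.1 against 28.7 on day 6. Synpo2l went from 24.3 against 2.93 to 143 against 78.4, so the gap in CPM widened for each. The log2FC of Ctgf fell from 2.57 to 0.52 (-2.05, SE 0.221, edgeR adjusted p = 5.53e-07). That of H19 fell from 3.86 to 2.66 (-1.20, SE 0.143, edgeR adjusted p = 2.40e-06). In mean CPM the gap of Ctgf shrank, from 314 against 52.8 to 158 against 110. The gap of H19 widened, from 1397 against 96.3 to 15440 against 2440. For Sfrp1 the lead grew to 4.49 (1.79, SE 0.190, edgeR adjusted p = 4.33e-07).

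Other differences in log2FC shrank or turned. The deficits of Igfbp4 (interaction 2.65, SE 0.281, edgeR adjusted p = 4.33e-07) and Fgf7 (1.70, SE 0.164, edgeR adjusted p = 1.06e-07) shrank in log2FC. So did those of Col1a1 (1.68, SE 0.271, edgeR adjusted p = 0.000115) and Mgp, an inhibitor of calcification (2.50, SE 0.369, edgeR adjusted p = 4.06e-05). Each kept its sign. In mean CPM, KO-labelled against WT, Col1a1 went from 18.0 against 403 in growth medium to 920 against 6409 on day 6. Igfbp4 went from 0.493 against 46.1 to 10.4 against 154, and Mgp from 0.768 against 9.90 to 13.3 against 30.2. For Col1a1, Igfbp4 and Mgp the gap in CPM was therefore wider on day 6. Isg15 and Ddx58 passed from lower in growth medium to higher on day 6, at 4.11 and 2.15, with interactions of 5.87, SE 0.380, edgeR adjusted p = 1.83e-10, and 2.89, SE 0.175, edgeR adjusted p = 6.80e-11. Actg2 went the opposite way, to -2.12 (-3.21, SE 0.228, edgeR adjusted p = 9.78e-10). Itga6 (2.04, SE 0.183, edgeR adjusted p = 3.47e-08) and Tnnt2 (2.19, SE 0.204, edgeR adjusted p = 6.48e-08) gained on day 6. The growth-medium difference of Myf5 shrank to -0.34 (1.09, SE 0.113, edgeR adjusted p = 3.27e-07). The genes of this paragraph were picked after their values were seen.

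**Figure D5:**
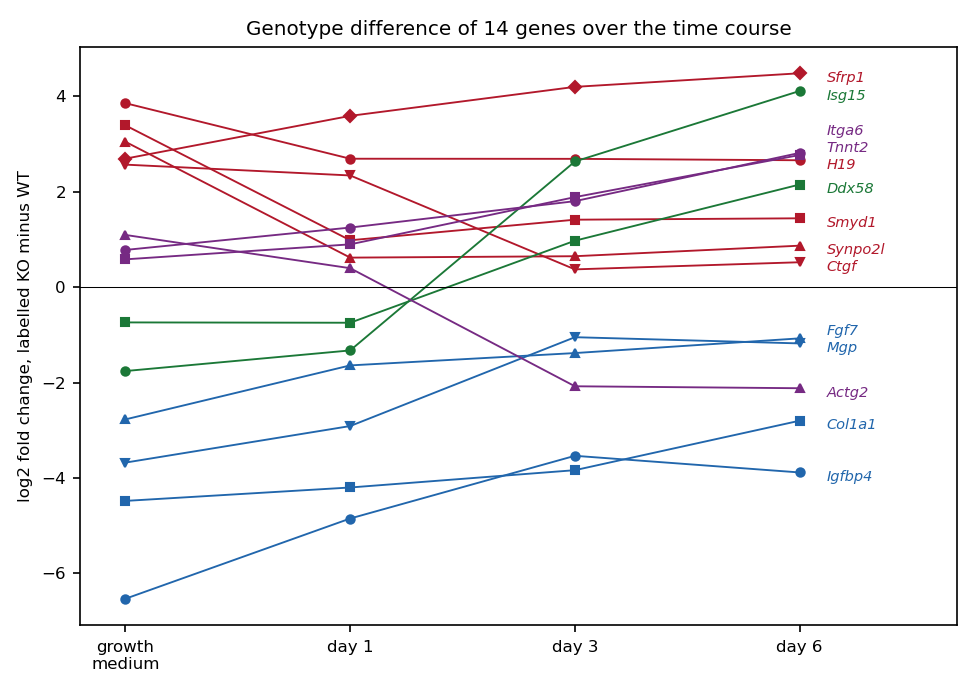
Lines follow the log2 fold change of 14 genes, KO-labelled over WT, from growth medium through days 1, 3 and 6; red genes were higher and blue genes lower in growth medium, green genes are interferon-responsive and purple genes belong to adhesion and the sarcomere or cytoskeleton. Isg15 and Ddx58 cross from below to above 0, Actg2 crosses in the other direction, and the blue genes move toward 0 without reaching it.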

How the data were processed

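RNA was selected with oligo dT from C2C12 cultures and sequenced. The authors deposited estimated counts and TPM per gene, which were used as deposited. Per the submitters' processing notes, Bowtie2, RSEM and the mm10 build were named, without versions or roles, and whether counting used strand is not given in the sources used here. The day of the last time point follows the sample titles. All estimated counts were whole, and rounding changed 0 values.

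The test was edgeR 4.0.16 in R 4.3.3: quasi-likelihood fits of group means over all 23 libraries and 8 groups, TMM scaling, genes kept by filterByExpr (minimum count 10, minimum total 15), and Benjamini-Hochberg adjustment over 14187 genes at 0.05. The fit over all groups lets the 2 WT libraries borrow their spread from the later days. CPM used the TMM library sizes. Interactions compared the genotype difference on a later day with that in growth medium. Alternatives used other scalings and filters, DESeq2 1.42.0, limma 3.58.1 on log2(TPM + 1) and log2(TPM + 0.1), the growth-medium groups alone, a replicate block and leaving out each library. On simulated counts for 14057 genes of this comparison, 62.7% of genes changed 1.5-fold, 88.1% changed 2-fold and 100% changed 4-fold were recovered. Of the 174 simulated calls 4.02% were false. The simulation changed 67, 67 and 66 genes at these folds, all above a minimum mean level. It drew independent replicates from the fitted dispersions, so 4.02% is not the share of false calls in the data.

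The comparison, the 46 gene lists and the tests were chosen with earlier results of these data known. Genes were named by rule: Runx, Ets and myogenic regulators, the 15 largest called differences each way with a group mean of at least 5 CPM, the 10 largest shifts each way in TPM, and up to 4 called members of each list each way. Others are named as examples chosen after their values were seen, and a few genes that the rule names are not reported here. Gene positions and promoter windows are from RefSeq on GRCm38.p6. A gene at 3 counts or fewer in every library of a group is given by its counts, with a fold as a bound. Counts from overlapping genes could be split between them.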

Additional observations from a re-analysis of the deposited data

Results flagged for a closer look

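Some growth-medium differences are set apart here because the difference itself changed between growth medium and day 6, by the test of the interaction of genotype and day in edgeR with Benjamini-Hochberg adjustment. Values are the day 6 log2FC minus the growth-medium log2FC, with no explanation offered. Genes named for the largest growth-medium differences were chosen by a value that also enters the interaction. Gains were 5.87, SE 0.380, edgeR adjusted p = 1.83e-10 for Isg15, 2.89, SE 0.175, edgeR adjusted p = 6.80e-11 for Ddx58, 2.65, SE 0.281, edgeR adjusted p = 4.33e-07 for Igfbp4, 2.50, SE 0.369, edgeR adjusted p = 4.06e-05 for Mgp and 2.19, SE 0.204, edgeR adjusted p = 6.48e-08 for Tnnt2. Further gains were 2.04, SE 0.183, edgeR adjusted p = 3.47e-08 for Itga6, 1.79, SE 0.190, edgeR adjusted p = 4.33e-07 for Sfrp1, 1.70, SE 0.164, edgeR adjusted p = 1.06e-07 for Fgf7, 1.68, SE 0.271, edgeR adjusted p = 0.000115 for Col1a1 and 1.09, SE 0.113, edgeR adjusted p = 3.27e-07 for Myf5. Falls were -3.21, SE 0.228, edgeR adjusted p = 9.78e-10 for Actg2, -2.18, SE 0.250, edgeR adjusted p = 1.34e-06 for Synpo2l, -2.05, SE 0.221, edgeR adjusted p = 5.53e-07 for Ctgf, -1.95, SE 0.268, edgeR adjusted p = 1.53e-05 for Smyd1 and -1.20, SE 0.143, edgeR adjusted p = 2.40e-06 for H19. No test for a single library far from its group was run on groups of 3 and 2, and the principal components in the report describe KO-labelled replicate 3.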

How the results depend on the processing

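The number of called genes kept both directions under every alternative, but its size and split moved. Against 1044 genes higher and 1435 lower, limma on log2(TPM + 1) gave 650 higher, limma on log2(TPM + 0.1) gave 692 higher, and the fit on the growth-medium groups alone gave 1795 higher of 3618 called. A threshold of 0.01 left 1443 genes, 580 higher and 863 lower, and a minimum absolute log2FC of 1 left 793, 245 higher and 548 lower. Leaving out 1 library gave 1265 to 2216 called genes, 535 to 1035 higher and 717 to 1181 lower. With scaling by library size alone 29.5% of calls were higher, against 42.1%. Taking out the median of each chromosome, an alternative chosen after seeing the data, gave 2031 calls, 776 higher and 1255 lower. Apart from leaving out a library, the number of called members moved by more than 1.5 times in at most 7 of 46 lists under each alternative, except in the fit on the growth-medium groups alone, where it did so in 16. The cause was not tested.

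Of 272 named genes, 166 kept direction and call under every alternative. The settings named with a lost call in the paragraphs above are not always all of them. Erf, for example, lost its call in 9 of 15 alternatives, Cyld in 10 of 15 and Rspo3 in 10 of 14. Signs turned for 4 genes that were not called: Runx3 (-0.0803 to 0.017 with 1 library left out), Ets1 (-0.0251 to 0.1772), Ets2 (-0.0063 with library size alone, -0.0065 and -0.0066 with limma on TPM at the pseudocounts 1 and 0.1) and Cdkn1a (-0.0541 to 0.0472 with 1 library left out, 0.0574 with the chromosome offset). All 15 interactions named kept direction and call, but they were picked after their values were seen, so this describes only them. With the replicate number as a block 2221 genes were called, 928 higher and 1293 lower, 2195 of them shared with the fit without it, and the call of 17 named genes changed. Same-numbered libraries deviated from their group means with correlations of 0.044 and 0.053. Deviations of the 2 WT libraries from their mean mirror each other, so these values are not 2 separate checks and cannot decide on pairing. The numbers were not taken to pair the samples. With 2 WT libraries, a spread of their own is poorly known, and genes of a few counts were not resolved at this depth.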

Other observations

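The largest shifts in abundance per transcript length differed from the largest fold changes. By mean TPM, the called genes with the largest gains were Ftl1, the ferritin light chain (8179, 8712 and 9342 against 6519 and 6885 TPM), H19, and the elongation factor Eef2 (3033, 2951 and 3278 against 2592 and 2269.9 TPM). Next came Igfbp2, the poly(A)-binding protein Pabpc1, the epithelial envelope protein Sprr1a, the actin-sequestering Tmsb4x, Rpl30, Rplp2 and Des. Sprr1a had the largest fold of the newly named ones, at 356, 345 and 285 against 106 and 106 CPM. The largest falls were those of Spp1, Bgn and Ifitm3, an interferon-induced antiviral membrane protein (466, 436 and 384 against 802 and 769 TPM). They were followed by Gstp1, the LIM protein Crip1, Tpi1, Pgk1, Lox, Aqp5 and Dynap. Aqp5, a water channel of glands, stood at 67.7, 65.1 and 65.9 against 255 and 242 CPM. Ftl1 lost its call without KO-labelled replicate 3 or WT replicate 1 (log2FC 0.39). Eef2 lost its call with limma on log2(TPM + 1) or limma on log2(TPM + 0.1) (log2FC 0.35). The calls of Igfbp2, Rplp2, Tpi1 and Pgk1 were lost without KO-labelled replicate 2 or 3 or WT replicate 1 or 2 (log2FC 0.27 to 0.41 for those higher and -0.37 to -0.16 for those lower). Tmsb4x lost its call without KO-labelled replicate 2 or WT replicate 1 (log2FC 0.35 to 0.37). Rpl30 lost its call without WT replicate 1 (log2FC 0.27). Gstp1 lost its call without KO-labelled replicate 1 or 2 or 3 or WT replicate 1 or 2 (log2FC -0.42 to -0.34). Ftl1, Rplp2 and Pgk1 also lost their calls with the chromosome median taken out (log2FC 0.13 to 0.26 for those higher and -0.17 for those lower).

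Lineage lists outside muscle gave mixed counts. Of 17 tested bone and cartilage genes, Postn (log2FC 0.63), Ogn (0.48) and Matn2 (0.34) rose and Mgp (0.817, 0.747 and 0.741 against 10.7 and 9.08 CPM), Enpp1 (-0.98), Spp1 and Ank (-0.78) fell (41.2% called). Over adipocyte and lipid genes 6 of the 21 tested members rose and 2 fell (38.1% called, median log2FC 0.02). The members called numbered 5 without KO-labelled replicate 2, 5 without KO-labelled replicate 3, 5 without WT replicate 1 and 3 without WT replicate 2. The adipocyte regulators Cebpa (3.72, 2.66 and 3.10 against 11.04 and 10.9 CPM) and Pparg (11.4, 11.7 and 13.0 against 18.7 and 20.9 CPM) were the pair that fell, and Ebf1 (32.2, 36.4 and 35.2 against 19.6 and 21.9 CPM) had the smallest adjusted p of the 6 that rose. Of 29 tested amino acid stress genes, Stc2 (log2FC 0.98), Slc7a1 (0.37), Psph (0.34) and Psat1 (0.32) rose and Vldlr (8.62, 5.32 and 1.205 against 12.8 and 9.86 CPM) fell (17.2% called, beside 17.5% of all tested genes). Of 35 tested clustered protocadherins, Pcdhb17 (log2FC 0.44) rose and Pcdhb13, Pcdhga9 and Pcdhgb1 fell (11.4% called), each of these 3 under 2 CPM in every library. Postn lost its call without WT replicate 2 (log2FC 0.49). Ogn lost its call without KO-labelled replicate 1 or 2 or WT replicate 2 (log2FC 0.31 to 0.47). The calls of Matn2 and Pcdhb17 were lost without KO-labelled replicate 1 or WT replicate 2 (log2FC 0.27 to 0.38). The calls of Slc7a1 and Psph were lost without KO-labelled replicate 2 or 3 or WT replicate 1 or 2 (log2FC 0.30 to 0.39). The calls of Psat1 and Vldlr were lost without WT replicate 1 (log2FC 0.30 for those higher and -0.94 for those lower). The value of Vldlr moved without KO-labelled replicate 1 or 3 (log2FC -1.77 to -0.70). Pcdhb13 lost its call with limma on log2(TPM + 1). Pcdhga9 lost its call without KO-labelled replicate 1 or 3 or WT replicate 1 or 2 (log2FC -1.98 to -1.43). Pcdhgb1 lost its call without WT replicate 1 or 2 (log2FC -1.58 to -1.56). Matn2 and Slc7a1 also lost their calls with the chromosome median taken out (log2FC 0.28 to 0.35).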
